A study of Mus musculus with 9 samples.

Results

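Collagen genes were followed in 9 array samples of GFP-labelled 3LL cells, the mouse Lewis lung carcinoma (LLC) line, a transplantable tumour line. The labels give the strain of all samples as C57/BL6 mice. The genes were those whose symbol in the platform annotation had the form Col, a number, a and a number, with 1 feature for each gene. This gave 42 genes of the 19505 measured, of which 11 encode fibrillar chains, 6 the type IV chains of basement membranes and 25 other chains. The mouse RefSeq table held 44 such symbols, and Col12a1 and Col7a1 were not analysed here.

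The samples formed 3 groups of 3. Lung samples were GFP-positive cells isolated 7 days after transplantation into the lung. The series text calls these BLM lungs, an abbreviation left here as it stands. No other group is described so, and the lung site and the BLM condition cannot be told apart in comparisons with the lung. Subcutaneous samples were GFP-positive cells isolated 7 days after transplantation under the skin. Dish samples were the same line after 7 days of culture as a monolayer, and their labels name no isolation step, so that growth in an animal and isolation of cells cannot be told apart in comparisons with the dish. All groups carry the GFP label and are 1 tumour line. Each p-value rests on the spread among samples within groups, pooled over the 3 groups and moderated across all genes. The labels do not state if replicates stem from different mice or cultures, so part or all of that spread could be technical. Of 6 markers of epithelial and mesenchymal state, Vim, Cdh2 and Krt8 were above background on all 9 arrays and Cdh1 and Epcam on none.

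Collagens are the main structural proteins of connective tissue. Their alpha chains wind around each other into a helix after hydroxylation of prolines and lysines in the endoplasmic reticulum, are secreted as procollagens, trimmed at their ends and crosslinked outside the cell. Fibrillar collagens such as types I and III give tensile strength and in tumours are known mainly as products of fibroblasts, type IV forms the sheet of basement membranes, and the remaining types form beaded filaments, join fibrils to other matrix, span cell membranes or build other networks.

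Arrays give a brightness for every feature, expressed or not, so each value was set against the negative controls of its own array. The guide to background used here was the 90th percentile of 5222 negative controls, which lay between 7.20 and 7.73 on the log2 scale. Over all genes, 28.0% to 34.4% lay at or above the guide on an array. Collagen genes hardly did: of their 378 values (42 genes on 9 arrays) 5 reached it, 1.32%, against 31.5% of the values of all genes. Their signals ran from 2.61 for Col8a1 on subcutaneous replicate 1 to 8.70 for Col5a1 on lung replicate 2. In each of the lung, subcutaneous and dish groups, 0 of 42 collagen genes were above the guide on all 3 arrays, while 30.8% of all genes were so in the lung group, 27.0% in the subcutaneous group and 28.0% in the dish group. The 5 values belonged to 3 genes, Col5a1 and Col16a1 on lung replicates 1 and 2 and Col4a3 on dish replicate 2. The other 39 genes stayed under it on every array. None of the samples is known to be rich in collagen RNA, so how these features answer to such RNA was not tested, and in bulk samples fewer cells of a type and less RNA per cell cannot be told apart.

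Below the guide the collagen genes still differed from feature to feature. Of the 42, 15 lay above the median of the negative controls on all 9 arrays, among them Col1a1, Col3a1, Col4a1, Col4a2, Col5a1, Col6a3 and Col16a1. Another 8 lay under that median on all 9, which were Col1a2, Col6a5, Col8a1, Col9a1, Col14a1, Col22a1, Col24a1 and Col26a1. Both chain genes of type I collagen, which assemble into the same fibril-forming molecule, thus lay on opposite sides of the control median. Because features differ in their own background, these positions are no ranking of the genes.

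**Figure D1:**
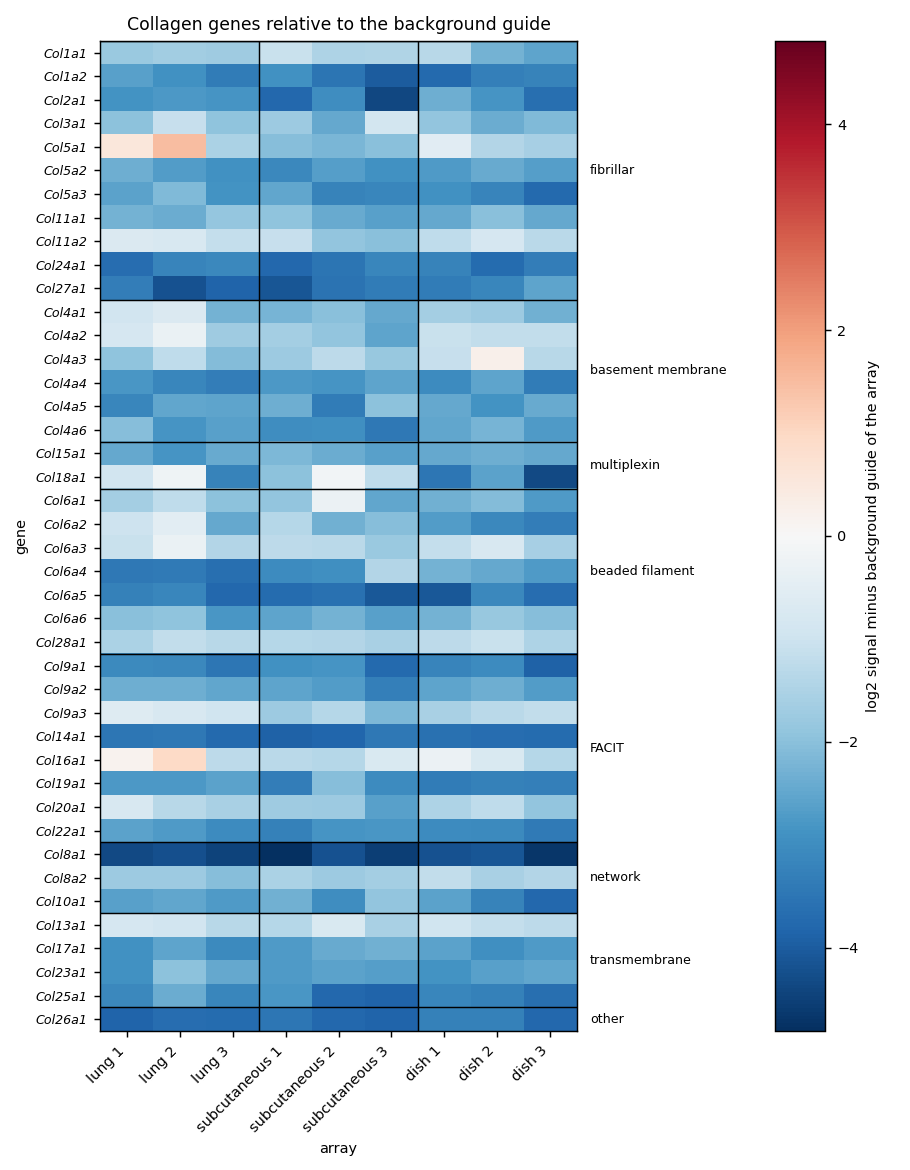
Log2 signal minus the background guide of the same array for 42 collagen genes (rows, by structural class) on 3 lung, 3 subcutaneous and 3 dish arrays (columns). White marks the guide, and the 5 values at or above it belong to Col5a1, Col16a1 and Col4a3.

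Between lung and subcutaneous samples, Col5a1 rose, and it was 1 of 42 collagen genes called, with 0 lower. Calls were made with limma, fitted to all 9 arrays, where the p adjusted over all 19505 genes was below 0.05. Of all genes 15.0% were called in this comparison, 9.21% higher and 5.79% lower in the lung. An unadjusted p below 0.05 was found for 7 of the 42 collagen genes, beside 5675 of all 19505 genes. Col5a1 encodes a chain of type V collagen, a minor fibrillar collagen that takes part in starting type I fibrils. Its log2 signal was 7.75, 8.70 and 5.82 in lung samples, against 5.38, 5.15 and 5.71 in subcutaneous samples and 6.74, 5.997 and 5.98 in dish samples. Every lung value exceeded every subcutaneous value, but lung replicate 3 exceeded the highest subcutaneous value by little, lay under all dish values and was under the guide. The difference between lung and subcutaneous samples was 2.01 (95% interval 0.85 to 3.17, adjusted p = 0.0242). It is a difference in signal and no measure of fold change in RNA, since all subcutaneous values were under the guide and the lung mean of 7.42 ± 1.47 (SD, n = 3) was below the mean guide of the subcutaneous arrays. Omitting subcutaneous replicate 1 or 2 ended the call (adjusted p = 0.0597 and 0.0747), as did omitting lung replicate 1 or 2 (0.0919 and 0.0923), while without lung replicate 3 the difference was 2.81 (adjusted p = 0.000476). Against the dish Col5a1 differed by 1.19 in lung samples (interval 0.02 to 2.35, adjusted p = 0.219), by 1.99 without lung replicate 3 (adjusted p = 0.00539) and by 0.55 without lung replicate 2 (adjusted p = 0.611).

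Lung replicates 1 and 2 stood apart from lung replicate 3 in other genes too. In a list of 50 measured genes with very long mRNAs, the median deviation from each gene's mean was 0.91, 1.05 and -0.23 on lung replicates 1, 2 and 3, between -0.39 and -0.10 on the subcutaneous arrays and between -0.57 and -0.32 on the dish arrays. With this score as a covariate the difference of Col5a1 was 0.38 (adjusted p = 0.734). The score was taken from these same arrays, and calls over all 19505 genes fell with it too. They fell from 2927 to 996 between lung and subcutaneous samples and from 1322 to 253 between lung and dish samples. RNA integrity numbers were 8.30, 7.90 and 8.30 on lung replicates 1, 2 and 3.

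Some other collagen genes were also brighter on lung replicates 1 and 2 than on lung replicate 3, and they are named here after their values were seen. Others were dimmer on both than on lung replicate 3, among them Col1a1, Col2a1, Col4a5, Col11a1, Col15a1, Col19a1, Col24a1 and Col26a1. The median signal of the collagen genes was 4.86, 4.86 and 4.79 on lung replicates 1, 2 and 3. Col16a1, a collagen associated with fibrils, was at 7.37, 8.18 and 6.10 in lung samples, against 6.12, 5.99 and 6.99 in subcutaneous samples and 6.98, 6.70 and 6.24 in dish samples. The lung and subcutaneous groups overlapped, and the difference of 0.86 was not called (interval -0.11 to 1.82, adjusted p = 0.225). It was 1.41 (adjusted p = 0.0236) without lung replicate 3 and 0.37 (adjusted p = 0.644) without lung replicate 2.

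The type IV chain genes Col4a1 and Col4a2, also named after their values were seen, were brighter on lung replicates 1 and 2 than on lung replicate 3. They neighbour each other head to head in the genome and encode the chains found in most basement membranes. Col4a1 was at 6.27, 6.52 and 5.08 in lung samples, against 5.18, 5.36 and 5.26 in subcutaneous samples and 5.65, 5.68 and 5.29 in dish samples. Col4a2 was at 6.39, 6.92 and 5.64 in lung samples, against 5.80, 5.46 and 5.19 in subcutaneous samples and 6.20, 6.21 and 6.41 in dish samples. Lung replicates 1 and 2 were the highest arrays for Col4a1, and lung replicate 3 the lowest. The differences between lung and subcutaneous samples, 0.70 for Col4a1 (interval -0.02 to 1.41, adjusted p = 0.183) and 0.84 for Col4a2 (interval 0.17 to 1.50, adjusted p = 0.0906), were not called. Without lung replicate 3 they were 1.13 for Col4a1 (adjusted p = 0.0109) and 1.17 for Col4a2 (adjusted p = 0.0154), and without lung replicate 2 they were 0.41 (adjusted p = 0.508) and 0.53 (adjusted p = 0.322). With the long-mRNA score as a covariate that of Col4a2 was 0.17 (adjusted p = 0.879).

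Col6a4, a mouse type VI chain gene also named after its values were seen, was lowest in the lung. It was at 3.78, 3.81 and 3.72 in lung samples, against 4.41, 4.41 and 6.32 in subcutaneous samples and 4.99, 4.95 and 4.85 in dish samples. The 3 lung values lay below all 6 others and had an SD of 0.05. The difference from subcutaneous samples was -1.27 (interval -2.16 to -0.39, adjusted p = 0.053) and that from dish samples -1.16 (interval -2.04 to -0.27, adjusted p = 0.114). Without subcutaneous replicate 3, the highest array, the difference from subcutaneous samples was -0.64 (adjusted p = 0.107). That from dish samples was still -1.16 and was called (adjusted p = 0.00804). This omission changes no lung or dish value, only the spread pooled over the groups, so the call adds no support. The difference from dish samples was called under 3 of 17 alternatives and not under 14 (adjusted p up to 0.575).

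**Figure D2:**
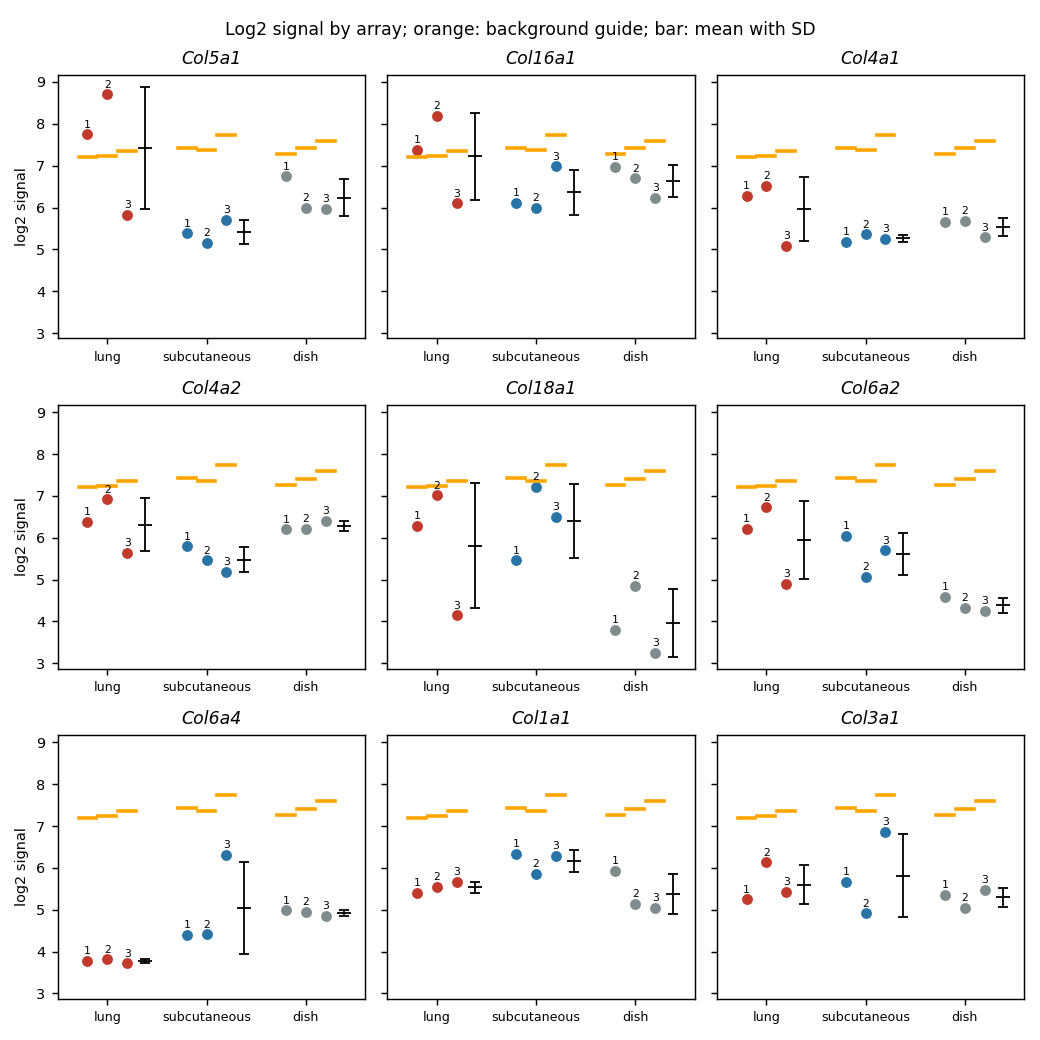
Log2 signal (y axis) of 9 collagen genes on each array of the lung, subcutaneous and dish groups (x axis). Points carry the replicate number, black bars are the mean with SD (n = 3), and orange dashes are the background guide of each array, which Col5a1 and Col16a1 passed on lung replicates 1 and 2.

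By structural class, the median difference between lung and subcutaneous samples was -0.01 for the 11 fibrillar genes, 0.00 for the 6 type IV genes and -0.09 for the 25 others, beside -0.07 for all genes. Fibrillar genes spanned -0.62 (Col1a1) to 2.01 (Col5a1), type IV genes -0.61 (Col4a4) to 0.84 (Col4a2) and the others -1.27 (Col6a4) to 0.86 (Col16a1). Groups that did not overlap were found for 3 collagen genes higher in the lung (Col5a1, Col9a3 and Col20a1) and 6 lower (Col1a1, Col4a4, Col6a4, Col8a2, Col15a1 and Col17a1). Of all genes 15.8% lay apart in the higher and 16.8% in the lower direction, so neither count exceeds the background. For 22 of the 42 genes the 95% interval lay within 1 log2 unit on either side of 0, beside 9399 of all 19505 genes. Since 39 of the 42 were under the guide on every array, such intervals do not show steady RNA.

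Type I and type III collagen, the most abundant fibrillar collagens of skin and lung, showed no called difference, and their values are given as a choice made after they were seen. Col1a1 was at 5.40, 5.56 and 5.67 in lung samples, against 6.34, 5.87 and 6.28 in subcutaneous samples and 5.92, 5.15 and 5.05 in dish samples. The lung values lay below all subcutaneous ones, with a difference of -0.62 (interval -1.21 to -0.03, adjusted p = 0.152). Between subcutaneous and dish samples Col1a1 differed by 0.79 (interval 0.20 to 1.38, adjusted p = 0.0803). Of 17 alternatives, 1 gave a call, the omission of dish replicate 1 (adjusted p = 0.0241), and the others gave adjusted p up to 0.247. Col3a1 was at 5.25, 6.13 and 5.42 in lung samples, against 5.67, 4.92 and 6.87 in subcutaneous samples and 5.36, 5.04 and 5.48 in dish samples, and its groups overlapped in every comparison. Col1a2 stayed between 3.54 and 4.59 on all arrays.

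The type I and III genes stayed under the guide in samples where other matrix genes typical of fibroblasts lay far above it. Decorin, Dcn, a proteoglycan that binds collagen fibrils, was at 13.94, 12.15 and 10.53 in lung samples, 16.47, 17.09 and 16.37 in subcutaneous samples and 7.32, 6.99 and 6.85 in dish samples. Lumican, Lum, a related proteoglycan, was at 7.33, 7.51 and 6.38 in lung samples, 13.19, 13.92 and 12.48 in subcutaneous samples and 5.61, 5.80 and 5.99 in dish samples. Dpt, a matrix protein that also binds decorin, was above the guide on all 3 subcutaneous arrays and on none of the other 6. Of 11 measured fibroblast markers, 1 was above the guide on all lung arrays, 3 on all subcutaneous arrays and 0 on all dish arrays, and 7 were under it on every array, among them Thy1, Fap and Pi16. By limma 5 of the 11 fell between lung and subcutaneous samples (Dcn, Lum, Dpt, and Mfap5 and Thy1 under the guide on every array), where 5.79% of all genes fell. Between lung and dish samples 1 rose (Dcn), where 4.81% of all genes did. Between subcutaneous and dish samples 3 rose (Dcn, Lum and Dpt) and 1 fell (Pdgfrb), where 6.41% of all genes rose and 6.47% fell. The log2 of the summed signal of the 11 was 10.94 to 13.99 on lung arrays, 16.48 to 17.25 on subcutaneous arrays and 9.11 to 9.55 on dish arrays, and on the lung and subcutaneous arrays it is close to Dcn alone. All 8 smooth muscle and pericyte markers, 8 endothelial markers, 6 leukocyte markers and 6 keratinocyte markers measured were under the guide on all 9 arrays. A list of 8 alveolar markers, which includes the airway gene Scgb1a1, was mixed. Of these, 3 were above the guide on all lung arrays, 1 on all subcutaneous arrays and 0 on all dish arrays. Sftpc and Sftpa1, surfactant protein genes of alveolar type II cells, were above it on the lung arrays only. Abca3 was above it on all lung and subcutaneous arrays and on 2 dish arrays, and Lamp3 and Hopx on none. The log2 of the summed signal of the 8 was 13.67 to 16.65 on lung arrays and 8.81 to 9.35 on subcutaneous arrays. It was 8.18 to 8.77 on dish arrays, and on the lung arrays it is close to Sftpc alone (15.59, 13.45 and 16.37). The part of other cells in the collagen signals was not tested.

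**Figure D3:**
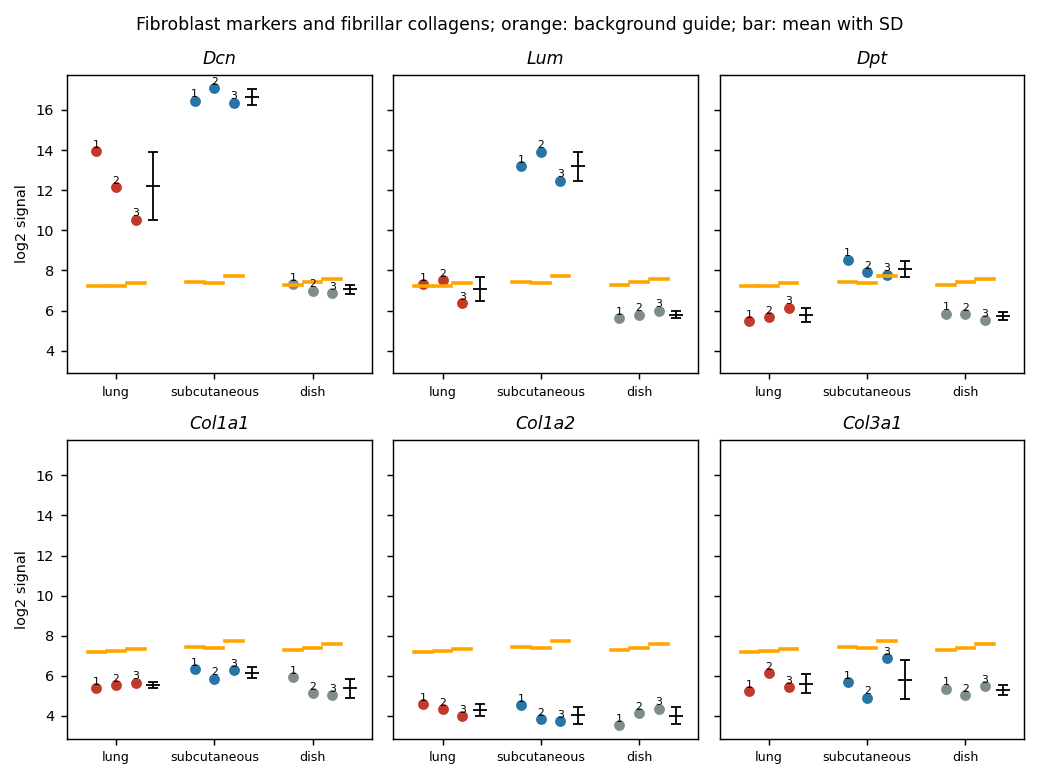
Log2 signal (y axis) of the fibroblast markers Dcn, Lum and Dpt and the fibrillar collagen genes Col1a1, Col1a2 and Col3a1 on each lung, subcutaneous and dish array (x axis). Points carry the replicate number, black bars are the mean with SD (n = 3), and orange dashes are the background guide. Dcn and Lum lay far above the guide in subcutaneous samples, while the 3 collagen genes stayed under it on every array.

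Between lung and dish samples 1 of 42 collagen genes was called, Col6a2, which was higher in the lung, and 0 were lower. Of all genes 6.78% were called in this comparison, 4.81% higher and 1.97% lower in the lung. An unadjusted p below 0.05 was found for 7 of the 42 collagen genes, beside 4271 of all 19505 genes. Col6a2 encodes a chain of type VI collagen, which forms beaded microfilaments around cells. Its signal was 6.21, 6.72 and 4.90 in lung samples, 6.05, 5.07 and 5.70 in subcutaneous samples and 4.59, 4.33 and 4.24 in dish samples. The dish values lay below all 6 others, although every value was under the guide, so no fold change is given. The difference between lung and dish samples was 1.56 (interval 0.69 to 2.43, adjusted p = 0.0354), and that between subcutaneous and dish samples 1.22 (interval 0.35 to 2.08, adjusted p = 0.0654); both use the same dish samples. Omitting dish replicate 1, 2 or 3 ended the lung call (adjusted p = 0.062, 0.12 and 0.113), as did omitting lung replicate 1 or 2 (0.133 and 0.138) or adding RNA integrity as a covariate (0.0662). With the long-mRNA score as a covariate the difference was 0.39 (adjusted p = 0.843).

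The genes of its partner chains in the same heterotrimer were also chosen after their values were seen. Col6a1, the genomic neighbour, was at 5.56, 5.996 and 5.39 in lung samples, 5.52, 7.10 and 5.25 in subcutaneous samples and 4.96, 5.34 and 4.85 in dish samples. The lung values lay above the dish values by a difference of 0.60 (interval -0.27 to 1.47, adjusted p = 0.419), and the subcutaneous group overlapped the dish group. The third chain gene of that molecule, Col6a3, was at 6.12, 6.90 and 5.94 in lung samples, 6.16, 6.05 and 5.94 in subcutaneous samples and 6.12, 6.65 and 5.98 in dish samples, and its difference between lung and dish samples was 0.07 (interval -0.55 to 0.70).

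Col4a3, a type IV chain gene known from specialised basement membranes of kidney and alveoli and likewise chosen after its values were seen, was at 5.29, 6.01 and 5.27 in lung samples, 5.68, 6.12 and 5.91 in subcutaneous samples and 6.17, 7.64 and 6.24 in dish samples. All dish values exceeded all others, but the difference between lung and dish samples, -1.16 (interval -1.96 to -0.36), was not called (adjusted p = 0.0799). Without dish replicate 2, the array above the guide, it was -0.68 (adjusted p = 0.281). Over the classes, the median difference between lung and dish samples was 0.08 for fibrillar genes, -0.22 for type IV genes and 0.04 for the others, beside -0.07 for all genes. The groups lay apart for 5 collagen genes in the higher and 5 in the lower direction, where 13.4% and 15.0% of all genes did so. Intervals lay within 1 log2 unit of 0 for 27 of the 42, beside 10563 of all 19505 genes.

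Between subcutaneous and dish samples the called collagen gene was Col18a1, which was higher under the skin, with 0 lower and 41 not called by limma. Of all genes 12.9% were called, 6.41% higher and 6.47% lower. An unadjusted p below 0.05 was found for 8 of the 42 collagen genes, beside 5008 of all 19505 genes. Col18a1 encodes a collagen of the multiplexin type in basement membrane zones, whose released end fragment is endostatin. Its signal was 6.28, 7.01 and 4.14 in lung samples, 5.46, 7.22 and 6.51 in subcutaneous samples and 3.81, 4.85 and 3.26 in dish samples. Every subcutaneous value exceeded every dish value, while lung replicate 3 lay within the dish range. The difference between subcutaneous and dish samples was 2.43 (interval 1.04 to 3.82, adjusted p = 0.0245), again with every value under the guide. It was lost without dish replicate 1 or 3 (adjusted p = 0.077 and 0.108), without subcutaneous replicate 2 or 3 (adjusted p = 0.102 and 0.0685), and with RNA integrity as a covariate, where it was 1.52 (adjusted p = 0.263). RNA integrity numbers were 8.60, 7.50 and 7.80 on subcutaneous replicates 1, 2 and 3, against 8.50, 8.60 and 8.40 on dish replicates 1, 2 and 3. The difference of Col18a1 between lung and dish samples, 1.84 (interval 0.45 to 3.23, adjusted p = 0.11), was not called. It was called under 3 of 17 alternatives, among them the omission of lung replicate 3 (2.68, adjusted p = 0.00898). Without lung replicate 1 it was 1.61 (adjusted p = 0.288).

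The median difference between subcutaneous and dish samples was 0.02 for fibrillar genes, -0.42 for type IV genes and -0.02 for the others, beside -0.01 for all genes. Of the 6 type IV genes 3 lay apart in the lower direction, Col4a2, Col4a3 and Col4a6, and 0 in the higher. Col4a2 differed by -0.80 (interval -1.46 to -0.13, adjusted p = 0.121) and Col4a6 by -0.56 (interval -1.10 to -0.01, adjusted p = 0.188). Over all 42 collagen genes 2 lay apart in the higher direction, Col6a2 and Col18a1, and 4 in the lower, while 14.2% and 15.1% of all genes did so. Intervals lay within 1 log2 unit of 0 for 26 of the 42, beside 9990 of all 19505 genes.

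**Figure D4:**
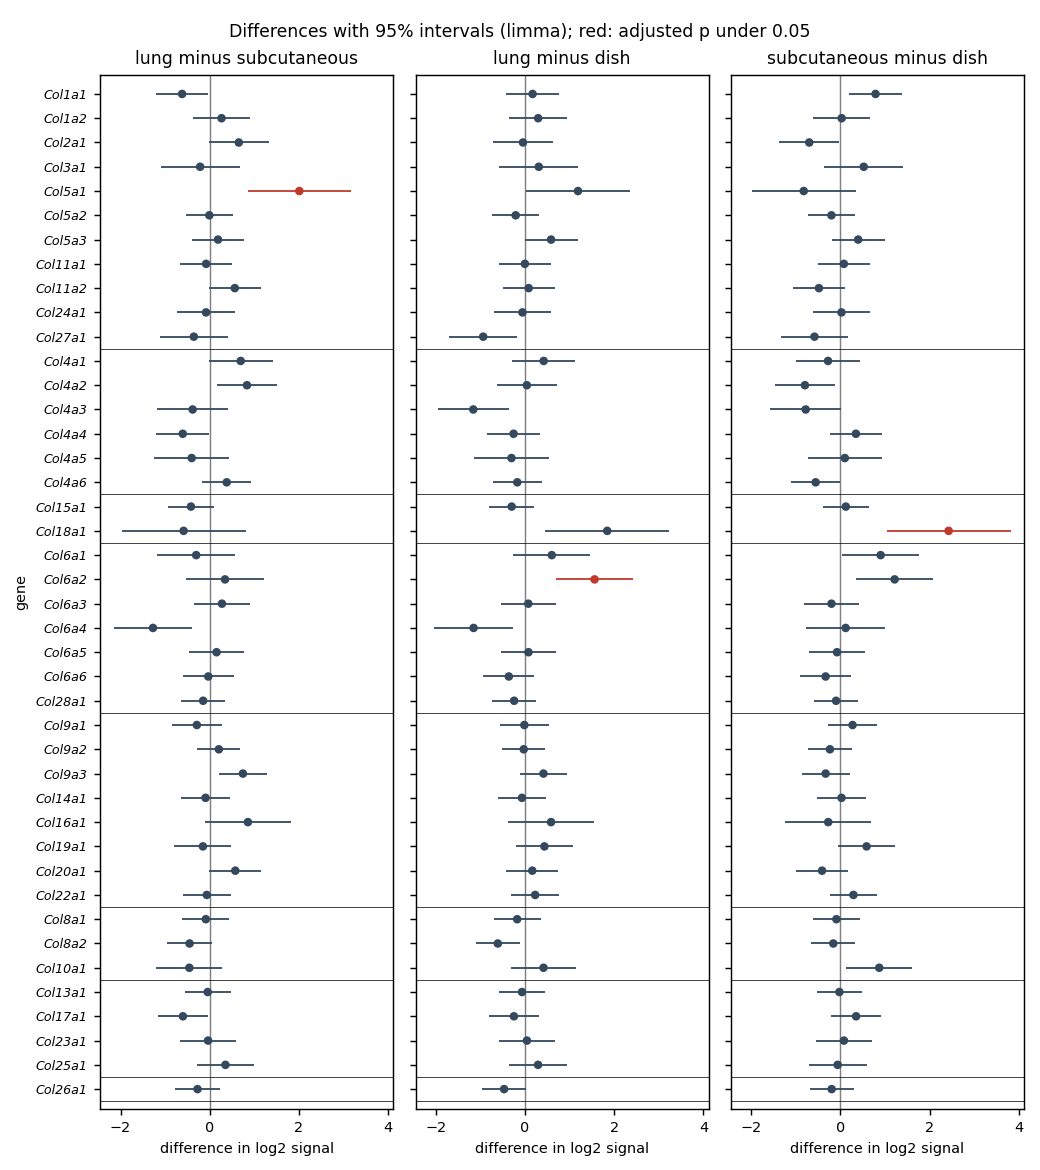
Differences in log2 signal (x axis) with 95% intervals from limma for the 42 collagen genes (rows, by structural class), for lung minus subcutaneous, lung minus dish and subcutaneous minus dish samples. Red marks the called genes, which are Col5a1 in the first panel, Col6a2 in the second and Col18a1 in the third.

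The stretches upstream of Col5a1, Col6a2 and Col18a1 are shown because these were the 3 collagen genes called in the main setting. They come from RefSeq, build GRCm38.p6, end just before the outermost start of the gene in the RefSeq gene table and are written 5′ to 3′ on the strand of the gene. Capitals mark the letters GGGCGG (the GC box core) and CCAAT, each on either strand, and the letters TATAAA were searched as well and are not in these windows. No 2 different motifs overlap in them. The stretches of Col6a2 and Col18a1 have 250 bases. That of Col5a1 has 206, since the start in the promoter table lies further in and the 44 bases between both starts were left out.
Col5a1, chr2:27886175-27886380, plus strand: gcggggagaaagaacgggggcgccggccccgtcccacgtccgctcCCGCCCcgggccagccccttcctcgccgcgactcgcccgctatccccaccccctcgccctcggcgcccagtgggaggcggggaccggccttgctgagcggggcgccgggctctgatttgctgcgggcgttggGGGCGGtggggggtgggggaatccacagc
Col6a2, chr10:76623631-76623880, minus strand: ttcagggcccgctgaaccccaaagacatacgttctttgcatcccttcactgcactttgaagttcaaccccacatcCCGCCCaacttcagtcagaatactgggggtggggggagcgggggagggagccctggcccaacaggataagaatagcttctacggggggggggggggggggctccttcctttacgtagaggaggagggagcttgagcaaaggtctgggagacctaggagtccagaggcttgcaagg
Col18a1, chr10:77166531-77166780, minus strand: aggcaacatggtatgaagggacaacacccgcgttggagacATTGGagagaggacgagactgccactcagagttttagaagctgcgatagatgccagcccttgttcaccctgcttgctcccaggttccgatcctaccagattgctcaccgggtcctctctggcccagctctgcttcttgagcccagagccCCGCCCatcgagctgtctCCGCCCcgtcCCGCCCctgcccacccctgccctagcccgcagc
The stretch of Col5a1 holds 2 GC box matches, that of Col6a2 holds 1 and that of Col18a1 holds 3 with 1 CCAAT match. In the 250 bases before the most upstream start of the promoter table, GGGCGG was found for 20 of 34 collagen genes with a promoter entry (58.8%), against 33.0% of all 27025 genes in the table. CCAAT was found for 11 (32.4%, against 34.5% of all genes) and TATAAA for 5 (14.7%, against 13.0%). The windows of the collagen genes were also richer in G and C, with a median of 59.4% against 52.0%. A match is a description of the sequence and not a site of binding.

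The genes whose products modify, export, trim and crosslink collagens were in part well above background. Of 51 measured genes of this kind (of 57 listed), 20 were above the guide on all 9 arrays and 22 on none. The counts for collagen genes were 0 and 39 of 42. On all 3 arrays of the group, 23 of the 51 were above it in the lung, where 30.8% of all genes were. The count was 22 in the subcutaneous group (27.0% of all genes) and 22 in the dish group (28.0%). Some bright examples, chosen after their values were seen, follow. Pcolce, which enhances removal of the procollagen end piece, averaged 16.10 ± 0.92 in lung samples, 16.22 ± 0.07 in subcutaneous samples and 16.24 ± 0.13 in dish samples (SD, n = 3 each). P4hb, the shared subunit of prolyl 4-hydroxylase and also a general disulfide isomerase, averaged 14.73 ± 0.42, 14.48 ± 0.15 and 15.35 ± 0.53 in lung, subcutaneous and dish samples. Serpinh1, the chaperone HSP47 that binds the collagen helix, averaged 10.02 ± 0.35 in lung samples, 9.69 ± 0.08 in subcutaneous samples and 9.38 ± 0.41 in dish samples. The collagen receptor gene Ddr2 averaged 12.94 ± 0.50 in lung samples, 12.55 ± 0.31 in subcutaneous samples and 12.13 ± 0.29 in dish samples. None of these 4 genes was called in any comparison. The crosslinking enzyme gene Lox, by contrast, stayed between 2.81 and 3.63 on all arrays, well under the guide.

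Between lung and subcutaneous samples 6 of the 51 rose and 6 fell, where 9.21% of all genes were called higher and 5.79% lower, and the median difference of the 51 was 0.01. Among 14 hydroxylation and glycosylation genes 2 rose and 3 fell. Plod2, the lysyl hydroxylase of telopeptides, was at 13.38, 12.83 and 12.97 in lung samples, against 14.50, 15.13 and 14.28 in subcutaneous samples and 13.46, 13.03 and 12.62 in dish samples. Subcutaneous samples thus stood above both other groups with no overlap, and the lung fell short of them by a difference of -1.58 (SE 0.30, adjusted p = 0.00388). The galactosyltransferase gene Colgalt1 fell by 1.63 (adjusted p = 0.00091) and P4ha1, a catalytic subunit gene of prolyl 4-hydroxylase, fell by 1.42 (adjusted p = 0.0121). P3h1, a prolyl 3-hydroxylase, went the other way, with 7.65, 7.45 and 7.60 in lung samples, against 5.57, 5.64 and 6.07 in subcutaneous samples and 6.66, 6.98 and 7.09 in dish samples. It was higher in the lung by 1.80 (adjusted p = 0.000487), but only the lung values exceeded the guide, so the fold is at least 1.04. The "at least" folds set the brighter group's mean against the guide of the dimmer group's arrays.

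Of 13 folding and export genes 3 rose and 2 fell between lung and subcutaneous samples. Sec24d, a coat component of the vesicles that carry procollagen out of the endoplasmic reticulum, was at 10.05, 9.55 and 10.11 in lung samples, against 7.92, 7.94 and 7.12 in subcutaneous samples and 8.50, 8.32 and 8.67 in dish samples. The lung values exceeded all others, with differences of 2.24 from subcutaneous samples (SE 0.28, adjusted p = 0.000351) and 1.41 from dish samples (adjusted p = 0.01). Mia3, which encodes the receptor TANGO1 that loads procollagen for export, was higher in the lung by 1.80 (at least 1.53-fold, adjusted p = 0.0204), and Creb3l2, a transcription factor of the secretory pathway, by 1.42 (adjusted p = 0.0132). Mia3 was above the guide on lung replicates 1 and 2 and not on lung replicate 3, and omitting subcutaneous replicate 3 (adjusted p = 0.0841) or either of those lung arrays (0.1 and 0.0599) ended its call. With the long-mRNA score as a covariate the difference of Mia3 was 0.77 (adjusted p = 0.505). The call of Creb3l2 was lost without lung replicate 1 (adjusted p = 0.0588) and with that covariate (1.09, adjusted p = 0.231). The channel gene Tmem38b was lower in the lung by a difference of -0.92 (adjusted p = 0.0369), under the guide on all arrays, and its call ended on omitting lung replicate 1 or 2, each subcutaneous array in turn or dish replicate 2 (adjusted p = 0.0525 to 0.149).

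Among the 10 propeptide cleavage genes Pcolce2, another enhancer of end piece removal, rose by 0.90 (adjusted p = 0.0184), with the call lost without lung replicate 1 or 3 (adjusted p = 0.0746 and 0.0524). Among the 5 crosslinking genes Loxl3, a lysyl oxidase family member, fell. It was at 8.49, 9.91 and 9.97 in lung samples, against 12.27, 11.98 and 11.98 in subcutaneous samples and 9.30, 9.04 and 8.24 in dish samples. The subcutaneous values exceeded all others, by a difference of -2.62 for lung minus subcutaneous samples (SE 0.39, adjusted p = 0.000935) and 3.21 for subcutaneous minus dish samples (SE 0.39, adjusted p = 0.000151). By limma, 0 of 9 receptor and uptake genes were called, with 1 at an unadjusted p below 0.05 (3 between lung and dish samples, 1 between subcutaneous and dish samples). Of all 19505 genes, 5675 had such a p here, 4271 between lung and dish samples and 5008 between subcutaneous and dish samples.

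Between lung and dish samples 5 of the 51 rose and 1 fell, where 4.81% of all genes were called higher and 1.97% lower, with a median of 0.08. Of the 13 genes in the folding and export list 4 were called, all higher in the lung, and 9 were not. Mia3 was higher by 2.13 (at least 1.62-fold, adjusted p = 0.0162) and Creb3l2 by 1.61 (adjusted p = 0.0129). Sec24d was higher by 1.41 and the collagen-binding glycoprotein gene Sparc by 1.33 (adjusted p = 0.022). Adamts14, a protease of procollagen amino ends, was at 9.54, 8.59 and 7.85 in lung samples and 7.96, 8.27 and 8.21 in subcutaneous samples, against 6.23, 7.09 and 6.77 in dish samples. It rose in the lung by 1.96 (at least 2.36-fold, adjusted p = 0.00776). P4ha2, another catalytic prolyl 4-hydroxylase subunit gene, was at 7.13, 6.09 and 6.20 in lung samples and 6.15, 7.02 and 6.21 in subcutaneous samples, against 8.70, 7.83 and 8.13 in dish samples. It was above the guide in the dish only, at least 1.93-fold brighter in the dish than in the lung (difference -1.75, adjusted p = 0.00995). Each of the 6 calls was lost with the long-mRNA score as a covariate (adjusted p = 0.063 for P4ha2 to 0.623 for Mia3). Over all genes the calls of this comparison fell from 1322 to 253 with it, and the sizes of the 6 moved differently. The difference was then 0.87 for Mia3, 1.21 for Creb3l2, 1.60 for Sec24d, 1.42 for Sparc, 1.16 for Adamts14 and -2.27 for P4ha2. Calls were also lost for Mia3 without dish replicate 2 or 3 or lung replicate 1 or 2 (adjusted p = 0.0523 to 0.078), for Creb3l2 without dish replicate 3 or lung replicate 1 (0.0527 and 0.0594), for Sec24d without dish replicate 2 or lung replicate 1 (0.0551 and 0.0508) and for Sparc without dish replicate 1 or 2 or lung replicate 2 (0.0736, 0.105 and 0.0927).

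Between subcutaneous and dish samples 9 of the 51 rose and 4 fell, where 6.41% of all genes were called higher and 6.47% lower, with a median of 0.23. Besides Loxl3, Plod2 rose by 1.60 (adjusted p = 0.00308) and P4ha1 by 1.19 (adjusted p = 0.0309), while P4ha2 fell by 1.76 (adjusted p = 0.00449, at least 1.64-fold brighter in the dish) and P3h1 by 1.15 (adjusted p = 0.00608, under the guide in both groups). In the folding and export list Fkbp7, a prolyl isomerase, rose by 2.06 (at least 1.61-fold, adjusted p = 0.00309). Mia2, a partner of Mia3 in export, rose by 1.44 (adjusted p = 0.000882) and Sparc by 1.21 (adjusted p = 0.0204). Among cleavage genes Adamts14 rose by 1.45 (at least 1.65-fold, adjusted p = 0.0205), the procollagen carboxyl end protease gene Bmp1 rose by 1.33 (adjusted p = 0.048) and Pcolce2 fell by 1.22 (adjusted p = 0.00318). Bmp1 lost its call on omitting lung replicate 1 or any dish or subcutaneous array (adjusted p = 0.0623 to 0.164), P4ha1 without dish replicate 2 or 3 or subcutaneous replicate 2 or 3 (0.073 to 0.126) and with RNA integrity as a covariate (0.67, adjusted p = 0.31), Adamts14 without dish replicate 1 or 3 or subcutaneous replicate 2 or 3 (0.0557 to 0.086), and Sparc without dish replicate 1 or 2 or subcutaneous replicate 1 or 3 (0.0572 to 0.0895).

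**Figure D5:**
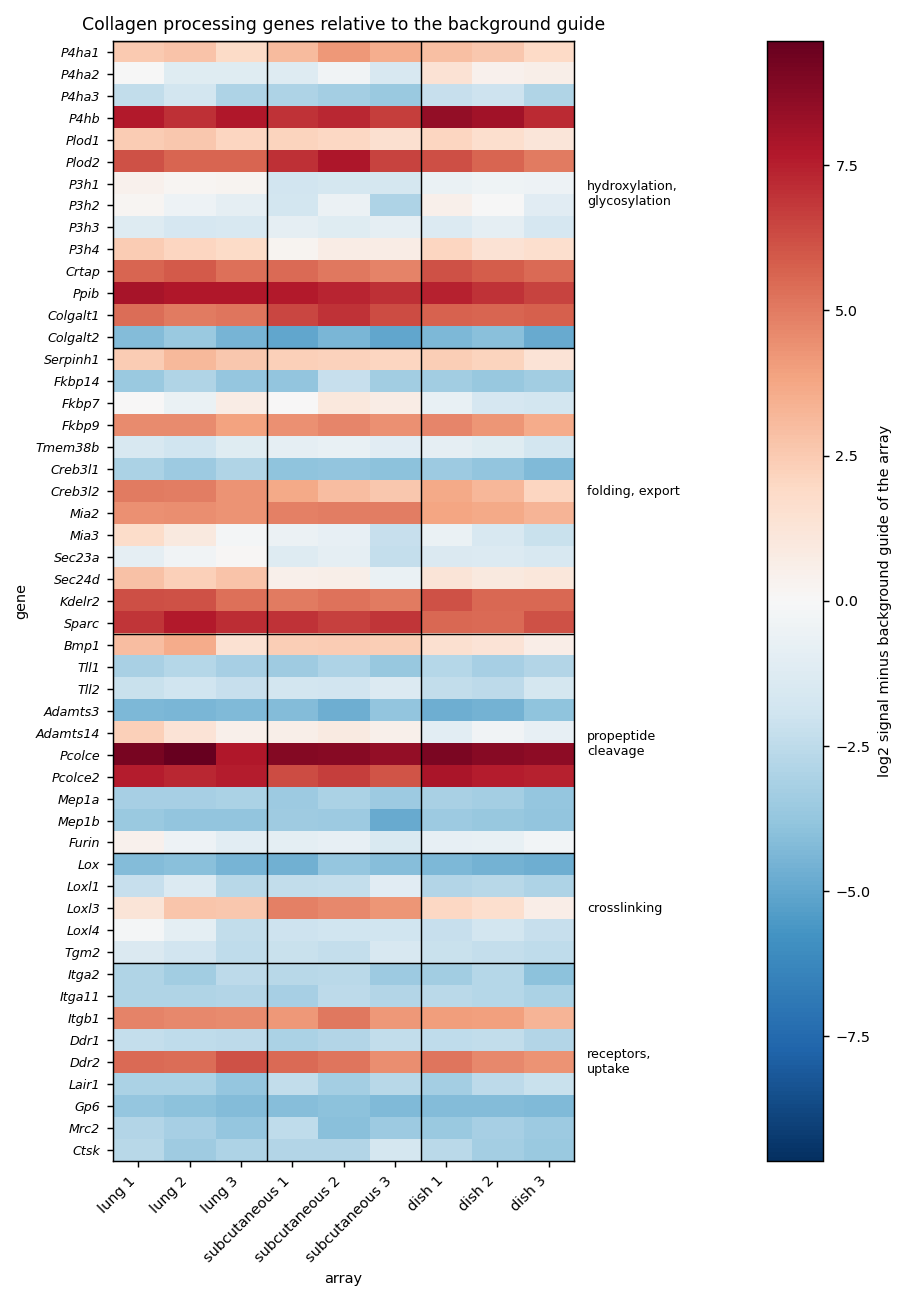
Log2 signal minus the background guide of the same array for 51 genes whose products act on collagens (rows, by role) on 3 lung, 3 subcutaneous and 3 dish arrays (columns). Genes such as Pcolce, P4hb, Ppib and Plod2 were red on all 9 arrays, and 22 of the 51 stayed blue on every array.

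The remaining collagen genes gave no call in any comparison and are accounted for here by class. In the fibrillar class Col2a1, Col5a2, Col5a3, Col11a1, Col11a2, Col24a1 and Col27a1 lay between 3.04 and 6.62 on all arrays, with their largest difference that of Col27a1 between lung and dish samples (-0.94, interval -1.70 to -0.18). Type IV genes Col4a4, Col4a5 and Col4a6 lay between 3.998 and 5.75. Among collagens associated with fibrils, Col9a1, Col9a2, Col9a3, Col14a1, Col19a1, Col20a1 and Col22a1 lay between 3.54 and 6.60, and Col9a3 differed most, by 0.74 between lung and subcutaneous samples (interval 0.21 to 1.28, adjusted p = 0.0619). Of the network formers, Col8a1 stayed between 2.61 and 3.30, Col8a2 between 5.33 and 6.19 and Col10a1 between 3.83 and 5.84. The membrane-spanning Col13a1, Col17a1, Col23a1 and Col25a1 lay between 3.58 and 6.62, and Col6a5, Col6a6, Col15a1, Col26a1 and Col28a1 between 3.18 and 6.36. The median within-group SD of a collagen gene was 0.34, close to the 0.35 of all genes.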

How the data were processed

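Log2 signals of 28846 features on 9 arrays were deposited as 1 table. Biotin was attached to fragmented cDNA, per the labels' protocols. How the authors normalized and summarized the log2 values, and on which build, is not given in the sources used here. The deposited values (1.56 to 19.7) were used unchanged. A platform annotation gave 19572 features 1 symbol each, and 2634 gene features had none. For the 55 genes with several features the one with the highest mean was used, leaving 19505 genes, and each of the 42 collagen genes had 1 feature. limma 3.58.1 in R 4.3.3 (lmFit, eBayes) was fitted to 9 arrays in 3 groups (residual degrees of freedom 6, prior 7.08). All tests were two-sided, and p-values were adjusted by Benjamini-Hochberg across the 19505 genes. The table holds no detection call, so the 90th percentile of the negative controls served as a guide. The number of arrays limits the precision. The fit was tested on simulated data.

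Members, classes and gene lists were chosen with earlier results of these data known. The rule for named genes took the collagen genes above the guide on all arrays of a group or called in a comparison, and up to 4 called genes with the largest difference for each list of processing genes and comparison. Every other gene given with values of its own, cell markers included, was chosen after its values were seen. Same-numbered samples of different groups did not deviate together (r of -0.06 to 0.09 over 9 pairs). Differently numbered samples gave r of -0.14 to 0.10 over 18 pairs. No pairing by number was seen, which does not exclude one. Alternatives are listed in the closing section.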

Additional observations from a re-analysis of the deposited data

Results flagged for a closer look

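The differences of the lung samples and of the subcutaneous samples from the dish are called effects here. The effects were unequal by limma's test of lung against subcutaneous samples for 13 genes. These were 1 of the 42 collagen genes and 12 of the 51 processing genes, where 15.0% of all genes were called. Cell markers were not counted here. Both effects use the same dish samples, and in that of the lung the site and the BLM condition cannot be told apart. The difference of the effects, lung minus subcutaneous, was 2.01 for Col5a1, 2.24 for Sec24d, 1.80 for P3h1, 1.80 for Mia3, 1.42 for Creb3l2, 1.32 for P3h4 and 0.90 for Pcolce2. It was -2.62 for Loxl3, -1.63 for Colgalt1, -1.58 for Plod2, -1.42 for P4ha1, -0.92 for Tmem38b and -0.76 for Mia2. For Mia2 the call was lost under 11 of 18 alternatives (adjusted p = 0.0511 to 0.24). P3h4, a member of the prolyl 3-hydroxylase family, averaged 9.38 ± 0.24 in lung samples, 8.06 ± 0.37 in subcutaneous samples and 9.09 ± 0.28 in dish samples (SD, n = 3 each). Groups of 3 are too small to test single samples as outliers.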

How the results depend on the processing

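The main counts of called collagen genes were 1 between lung and subcutaneous samples, 1 between lung and dish samples and 1 between subcutaneous and dish samples, and such counts move with single genes. Between lung and subcutaneous samples the count was 2 with an intensity trend, 5 with array weights and 0 with only the 2 groups in the fit. Over all 19505 genes these settings called 3113, 3824 and 2301, against 2927 in the main setting. Between lung and dish samples the collagen count was 5 with array weights, 3 with the replicate block and 2 with only the 2 groups. It was 0 with RNA integrity or the long-mRNA score as a covariate. Calls over all genes were 3039, 1313, 1294, 856 and 253 in that order, against 1322 in the main setting. Between subcutaneous and dish samples the collagen count was 2 after quantile normalization, with array weights or with only the 2 groups. It was 0 with RNA integrity and 3 with the long-mRNA score. Calls over all genes were 2690, 2474, 2312, 1280 and 2736 in that order, against 2513 in the main setting. Leaving out 1 array at a time gave 0 to 4 collagen genes between lung and subcutaneous samples and 0 to 3 between lung and dish samples. Between subcutaneous and dish samples it gave 0 to 2. Over all genes it gave 1476 to 2928, 514 to 1442 and 1639 to 2738 in these 3 comparisons. With a filter on dim genes no collagen gene was left to test, and the count above background on all arrays of a group stayed at 0 with the 95th percentile as guide.

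For the processing genes the main counts were 12, 6 and 13. They became 6 between lung and subcutaneous samples with the long-mRNA score, where 996 of all genes were called. Between lung and dish samples they became 12 with array weights (3039 of all genes) and 0 with the long-mRNA score (253). With the filter on dim genes 12 of the 25 left to test were called in that comparison, beside 1577 of all 6311 left. Between subcutaneous and dish samples the count was 8 with RNA integrity (1280 of all genes). Leaving out 1 array gave 7 to 12, 3 to 8 and 8 to 13, beside the ranges for all genes given above. Signs turned, without a call, with the long-mRNA score for Col16a1 between lung and subcutaneous samples (-0.23), Col4a1 in the same comparison (-0.20), Col18a1 between lung and dish samples (-0.33) and Col5a1 between lung and dish samples (-0.81), and for Col18a1 between lung and subcutaneous samples when single arrays were left out (-1.19 without lung replicate 2 to 0.25 without lung replicate 3). The last of these differences was -2.36 and called with the long-mRNA score (adjusted p = 0.0496), against -0.59 in the main setting. Of 34 called gene and comparison pairs 13 kept direction and call under every alternative run and 21 lost the call under at least 1, and the cause was not tested. The replicate numbers are not known to mark pairs. The replicate block gave 1, 3 and 1 called collagen genes and 11, 6 and 14 called processing genes in the 3 comparisons. Over all genes it gave 2852, 1313 and 2475.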
